A study of Mus musculus with 4 samples.

Results

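The replication-dependent histone genes code for the histones that package newly copied DNA: the linker histone H1 and the core histones H2A, H2B, H3 and H4. They were described in single-cell RNA of mouse bone marrow. Members were chosen by symbol alone, as every gene named H2ac, H2bc, H3c or H4c with a number, plus H1f1 to H1f5. The rule found 66 of the 33696 genes in the deposited matrices: 5 for H1, 18 for H2A, 18 for H2B, 12 for H3 and 13 for H4.

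All mice were lethally irradiated hosts that carried a mixed graft of CD45.2+ Tet2+/- donor marrow and CD45.1+ Tet2+/+ competitor marrow, and only CD45.2+ cells were sequenced. Tet2 encodes an enzyme that oxidises 5-methylcytosine. Treatment began after 1 month of engraftment and lasted 7 months. The Control group received PBS injections, 2 times a week, and 100 mM sodium chloride in the drinking water. The Butyrate group received the same injections and 100 mM sodium butyrate in the water. The B12 group received 0.29 µg vitamin B12 per injection with sodium chloride water, and the B12+Butyrate group received both agents. Each group gave 1 library from 3 pooled mice, with sorted Kit+ and Kit- cells mixed 50:50, so a difference between groups is a difference between 2 libraries and has no replicate check.

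Histone mRNA of this family is made in S phase, when chromatin on both daughter strands has to be filled, and is destroyed when replication stops. Its mRNAs normally lack a poly(A) tail. They end a few bases after a stem-loop, which is bound by the stem-loop binding protein Slbp and cut by a dedicated complex that includes the U7 small nuclear ribonucleoprotein. Some of the genes also have a poly(A) site farther downstream, and polyadenylated histone mRNA is known from differentiating and resting cells. The libraries were primed on poly(A), so a member is seen here only through tailed RNA or internal priming, and its level is not its total mRNA.

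The stem-loop was found by a search of the annotated transcripts (GENCODE vM21, build GRCm38), and it is printed here because it is the element that ends most of these mRNAs. It was present in 45 of 66 members. The most common core was shared by 26 members, the second by 7 and the third by 5; the capitals mark the 2 arms of the stem.

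Shared by 26 members: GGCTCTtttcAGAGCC

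Shared by 7 members: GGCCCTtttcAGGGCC

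Shared by 5 members: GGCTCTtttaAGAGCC

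The members on which the results turn carried them in this context, each printed 5′ to 3′ on the strand of the gene, with 5 bases on either side.

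H2ac4, chr13:23751567-23751592, plus strand: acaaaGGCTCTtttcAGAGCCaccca

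H3c3, chr13:23745042-23745067, minus strand: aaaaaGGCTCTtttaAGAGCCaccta

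H2ac6, chr13:23683472-23683497, minus strand: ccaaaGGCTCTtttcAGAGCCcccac

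H1f2, chr13:23739507-23739532, plus strand: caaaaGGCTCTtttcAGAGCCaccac

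H4c4, chr13:23581945-23581970, plus strand: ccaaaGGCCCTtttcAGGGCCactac

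H2ac4 and H2ac6 thus shared the same stem-loop core. Their annotated transcripts differed in length after it, among other differences in sequence. The annotated H2ac4 transcript stopped 11 bases past the stem-loop and that of H3c3 stopped 74 bases past it. The H2ac6 transcript went on for 2010 bases, that of H1f2 for 840 bases and that of H4c4 for 770 bases. By this measure 25 members were placed as extended, which means an annotated end 150 or more bases past the stem-loop, or a transcript of 1000 bases or more in which no stem-loop was found. Another 24 members ended at the stem-loop, and 17 short transcripts held no stem-loop, so that their end was not annotated. H2bc4 belongs to the extended members through its transcript of 1156 bases. Of the 66 genes 53 lie on chromosome 13, 10 on chromosome 3, 2 on chromosome 11 (H2ac25 and H2bc27) and 1 on chromosome 6 (H4c16). Near-identical copies limit single genes: in 27 members fewer than 50% of the 90-base windows of the annotated transcript were unique among members, and in 14 members 90% or more were. Among the genes described most closely, H2ac6 had 90.7% unique windows, H4c4 99.1%, H1f2 94.3%, H2bc4 73.9%, H2ac4 46.4% and H2bc24 13.7%.

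Of 34670 deposited barcodes 31209 passed the filters (at least 500 genes, at least 1000 UMIs, at most 10% mitochondrial UMIs), with a median of 11583.5 to 12544.5 UMIs per cell across the 4 libraries. Any 2 libraries shared 13 to 30 barcodes. A cell was called cycling when it passed a limit on a list of 46 S-phase genes or of 48 G2/M genes, neither of which holds a member, and 15105 cells were. Of all cells 9353 lay near a limit. Cell classes came from 30 clusters made without the members and without the cycle lists, named from marker genes and therefore written with the ending -like. A cluster of 1422 neutrophil-like cells was still led by members, with H1f3, H2bc15, H1f5, H2ac10, H3c3, H2ac4 and H3c11 among its top 10 genes, and another of 3324 cells had H2bc15 and H3c11 there. One of the B-lineage-like clusters (82 of 83 cells) and one of the neutrophil-like clusters (178 of 199 cells) consisted mostly of called doublets, so results on B-lineage-like cells are given with and without called doublets where that changed them.

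Members held 1350025 of 439004038 UMIs in cells that passed. Values are given below in the order Control, Butyrate, B12 and B12+Butyrate where no library is named. Levels are in CPM, the UMIs of a gene scaled by all UMIs of the cells summed. The summed level of the members was 2747, 3022, 3425 and 3115 CPM. The share of cycling cells was 48.5%, 47.8%, 52.7% and 44.2%. The B12 library had the highest summed level and the highest share of cycling cells. The other libraries did not keep this order: Control had the lowest level at 48.5%, and B12+Butyrate had 3115 CPM at the lowest share. The H1 genes took 28.8% of member UMIs, H2A 25.6%, H3 16%, H2B 15.3% and H4 14.3%. Over all cells 42 of the 66 members reached 10 CPM.

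A few genes carried most of the signal. The 12 members with the most UMIs held 67.2% of the total. H1f4 led with 341 CPM and H1f5 followed with 286 CPM, both linker histones that bind DNA where it enters and leaves the nucleosome. The H2A gene H2ac8 stood at 241 CPM, the H3 gene H3c3 at 217 CPM and the H4 gene H4c4 at 214 CPM. The H2B gene H2bc4 had 150 CPM, H1f2 148 CPM and H2ac6 136 CPM. H2ac4, H1f3, H2bc6 and H2ac20 ended the group of 12 with 94.5, 84.0, 78.8 and 77.1 CPM. At the other end H4c17 had 16 UMIs over all cells, H2bc23 had 10, H2ac19 had 7 and H2bc1 had 2. H2ac1 had 0 UMIs. These ranks are of captured 3′ ends and say nothing of the genes' total mRNA.

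Summed over members, cycling cells held a higher level than non-cycling cells of the same library in neutrophil-like, monocyte-like and B-lineage-like cells. In cycling neutrophil-like cells the summed level was 4645, 4888, 5219 and 5120 CPM, and in non-cycling cells of the class it was 431, 434, 593 and 460 CPM. Monocyte-like cells had 3948, 4550, 4687 and 4719 CPM when cycling and 769, 885, 1099 and 1083 CPM when not. B-lineage-like cells had 1710, 3205, 2649 and 3276 CPM when cycling and 664, 760, 1382 and 1082 CPM when not. Across libraries the 2 states did not overlap in these 3 classes. With called doublets removed they overlapped in B-lineage-like cells, where the cycling values were 1297 CPM in Control and 1160 CPM in Butyrate and the non-cycling value in B12 was 1444 CPM. After thinning they also overlapped there (1265 CPM in cycling Control, 1466 CPM in non-cycling B12). All 1295 GMP-like cells, the granulocyte and monocyte progenitors marked by Elane, Mpo and Prtn3, were called cycling. Their summed level was 2183, 2314, 2212 and 2164 CPM, below that of cycling neutrophil-like cells in each library. A sum of UMIs cannot tell fewer cells with the mRNA from less mRNA per cell.

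**Figure D1:**
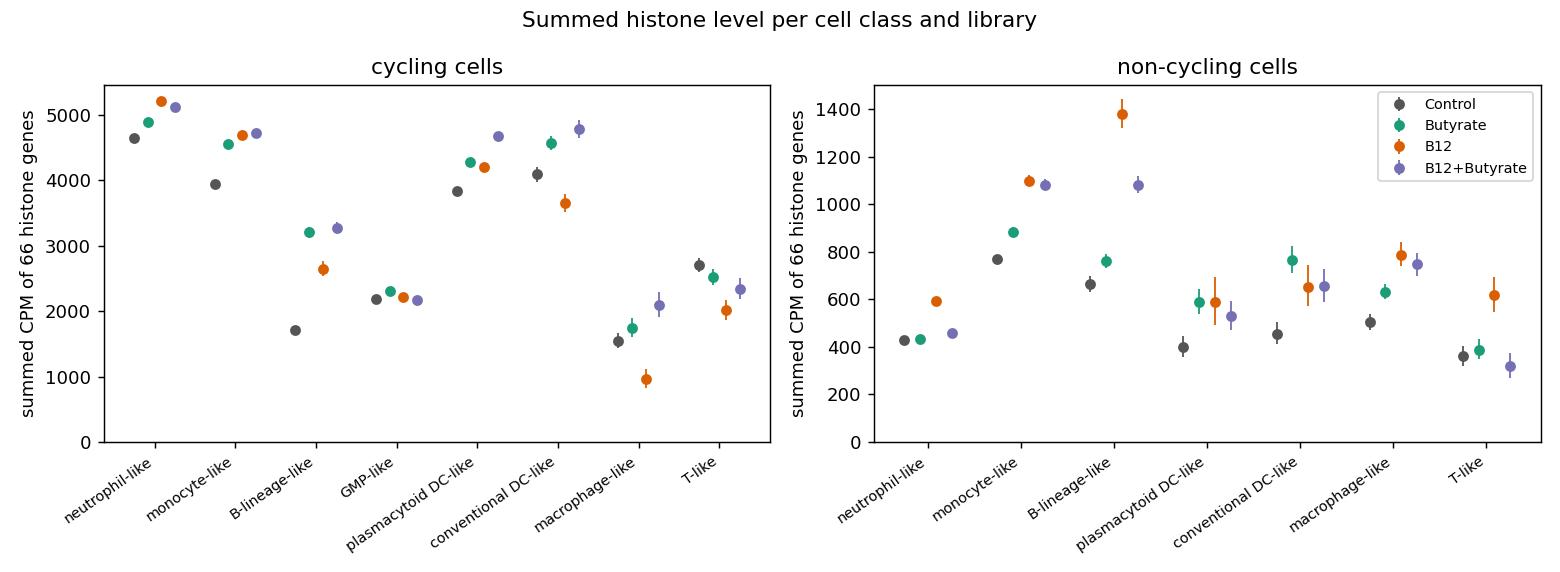
Summed level of the 66 histone genes (y, CPM, linear from 0, one scale per panel) per cell class (x) in cycling cells (left) and non-cycling cells (right, where GMP-like cells have none), each point 1 library with its exact Poisson 95% interval for counting error. In neutrophil-like cells the cycling points lie at 4645 to 5219 CPM and the non-cycling points at 431 to 593 CPM.

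The comparison of cycling with non-cycling cells asked which members follow the cycle, and its states were called without them. The states also differed in other measures. The median depth was 17950 to 20046 UMIs in cycling and 7740.5 to 9479 in non-cycling neutrophil-like cells, and 16938 to 21190 against 10794 to 11625.5 in monocyte-like cells. Elane, a gene of granulocyte and monocyte progenitors, was at 323 to 478 against 6.91 to 35.8 CPM in neutrophil-like and at 1000 to 1533 against 13.7 to 49.9 CPM in monocyte-like cells. The part of these measures in the changes was not tested, except that thinning is given where it changed a count. In neutrophil-like cells 60 members passed the filter on low counts, and 58 of them were called higher in cycling cells and 0 lower by edgeR's quasi-likelihood test with the library as a block (Benjamini-Hochberg adjusted p under 0.05 and a log2 fold change of 1 or more). Of all 13322 genes tested 21.1% were called higher and 13.8% lower. The median log2 fold change was 4.58 over the tested members and 0.07 over all tested genes. In monocyte-like cells 61 members were tested, 52 were called higher and 1 lower, with a median of 2.56. The background there was 13.4% higher and 8.42% lower. In B-lineage-like cells 50 members were tested, 34 were called higher and 0 lower, with a median of 2.05 and a background of 6.92% higher and 0.581% lower. With called doublets removed, 19 of 39 tested members were called higher in B-lineage-like cells. With every cell thinned to 2000 UMIs, 7 of 24 were. The share over all genes under these settings is not given here. The members that could not be tested in any class were H2ac1, H2ac19, H2bc1, H2bc23 and H4c17.

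The largest changes were in members of very low level outside the cycle. That level is the base of the fold change, so this relation follows in part from how the change is computed. H3c3 had 390, 407, 415 and 393 CPM in cycling neutrophil-like cells. In non-cycling cells it had 2.06, 1.72, 1.86 and 1.18 CPM. Its log2 fold change was 7.69 (SE 0.07, edgeR adjusted p = 4.82e-24). H2ac4 had 137, 164, 159 and 176 CPM when cycling and 0.865, 0.996, 0.466 and 0.284 CPM when not, a log2 fold change of 7.86 (SE 0.11, edgeR adjusted p = 2e-19). H2ac10 had the highest value of the class, 8.13 (SE 0.12, edgeR adjusted p = 1.51e-21), from a mean of 90.6 CPM against 0.301 CPM. For all of these genes the 4 cycling values stood far above the 4 non-cycling ones. H1f5 had 482, 452, 431 and 428 CPM when cycling and 6.06, 4.98, 3.90 and 3.50 CPM when not. H2ac8, with 332, 348, 370 and 391 CPM against 6.66, 6.34, 8.74 and 6.39 CPM, showed the same separation.

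H2ac10 and H3c3 had the highest values in the other classes too, followed by the H3 gene H3c2. In monocyte-like cells the log2 fold change was 6.89 for H2ac10 (SE 0.16), 6.70 for H3c3 (SE 0.21), 5.97 for H3c2 (SE 0.22) and 5.58 for H2ac4 (SE 0.11). In B-lineage-like cells it was 6.50 for H2ac10 (SE 0.36), 6.44 for H3c3 (SE 0.31), 6.20 for H3c2 (SE 0.53) and 4.92 for H2ac4 (SE 0.21). H1f5 changed by 4.17 (SE 0.07) and 3.97 (SE 0.15) in these 2 classes and H2ac20 by 3.17 (SE 0.07) and 2.52 (SE 0.17). All of these values had an edgeR adjusted p under the threshold and were higher in cycling cells of 4 of 4 libraries. H4c4 changed by 3.72 (SE 0.05) in neutrophil-like cells and by 2.36 (SE 0.05) in monocyte-like cells. In B-lineage-like cells it had a log2 fold change of 1.68 (SE 0.39) with an edgeR adjusted p = 0.0577, which missed the threshold. DESeq2 gave 1.57 there with an adjusted p = 0.000837.

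**Figure D2:**
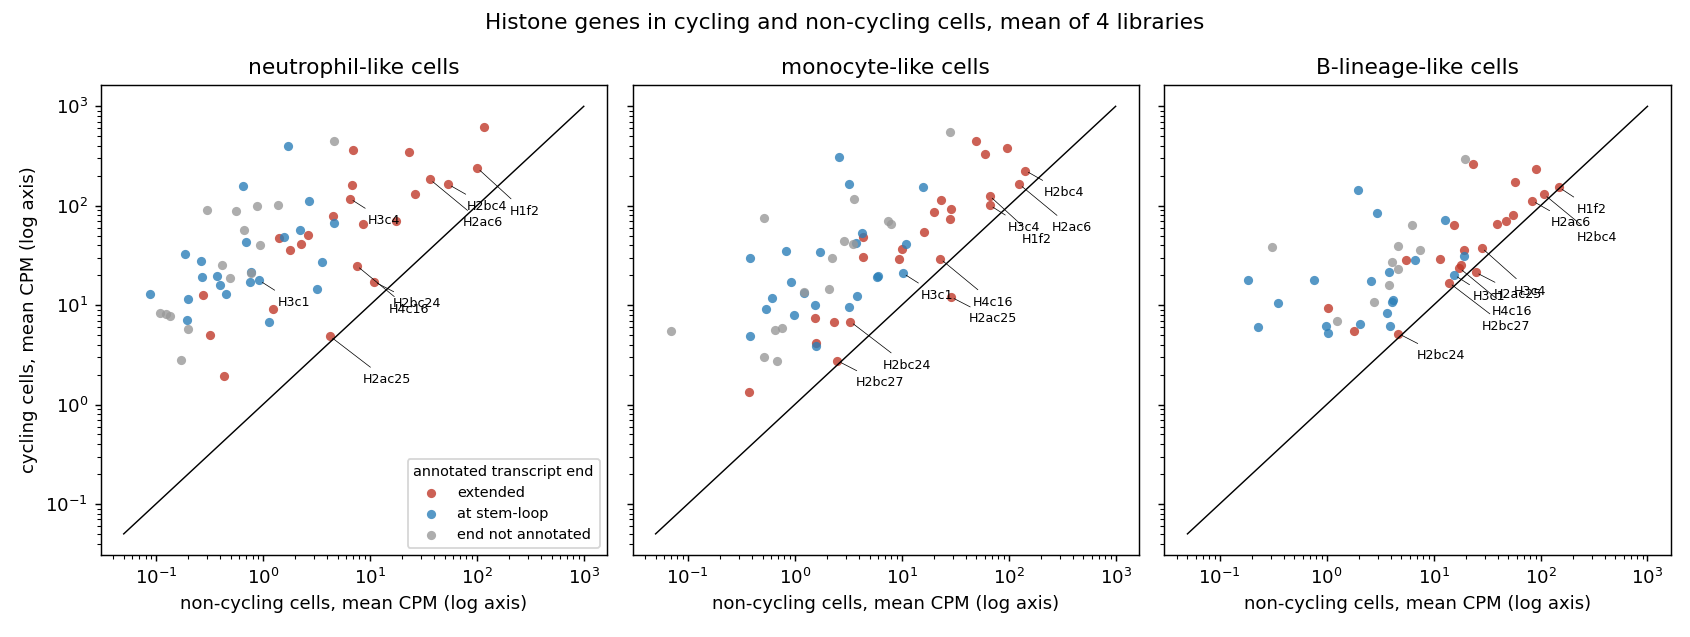
Mean level over 4 libraries in non-cycling cells (x, CPM, log axis) and cycling cells (y, CPM, log axis) of each member tested, coloured by its annotated transcript end, with a diagonal at equal levels and labels on the genes with a log2 fold change under 1 in 50% or more of the classes where they were tested. Most points lie well above the diagonal, while H2ac25 and H2bc24 lie near it in neutrophil-like cells.

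Single genes left the group. A member was said to leave when its log2 fold change was under 1 in 50% or more of the classes in which it was tested. These were H1f2, H2ac6, H2ac25, H2bc4, H2bc24, H2bc27, H3c1, H3c4 and H4c16. Of these 9 genes 8 have an extended transcript, and H3c1 ends at the stem-loop. The rule includes B-lineage-like cells, where few cycling cells had both the S and the G2/M call. These were 36 of 205, 32 of 208, 15 of 135 and 25 of 222. Their part in the low changes of that class was not tested.

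H1f2, a linker histone, kept a high level outside the cycle in all 3 classes. In neutrophil-like cells it had 218, 241, 256 and 245 CPM when cycling and 84.0, 92.9, 122 and 103 CPM when not. The states did not overlap and the log2 fold change was 1.05 (SE 0.05, edgeR adjusted p = 1.96e-12). In B-lineage-like cells it had 106, 130, 176 and 199 CPM when cycling and 102, 124, 173 and 196 CPM when not. The states overlapped there, with a log2 fold change of 0.03 (SE 0.08, edgeR adjusted p = 0.818). In monocyte-like cells the log2 fold change was 0.85 (SE 0.08).

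H2ac6 and H2bc4 are neighbours on chromosome 13 that are read in opposite directions, an H2A and an H2B gene. In monocyte-like cells H2ac6 had 148, 175, 160 and 173 CPM when cycling and 84.6, 100.0, 159 and 161 CPM when not. Its log2 fold change was 0.33 (SE 0.19, edgeR adjusted p = 0.202), and the non-cycling B12 and B12+Butyrate values lay inside the cycling range. H2bc4 had 242, 222, 218 and 223 CPM when cycling and 122, 97.7, 181 and 170 CPM when not, a log2 fold change of 0.61 (SE 0.20, edgeR adjusted p = 0.0576) with no overlap. Without the B12 library the values were 0.475 (edgeR adjusted p = 0.0188) for H2ac6 and 0.756 (edgeR adjusted p = 0.00209) for H2bc4, and DESeq2 gave an adjusted p = 0.0107 for H2bc4 with all libraries. In neutrophil-like cells both were called higher, by 2.13 (SE 0.18) for H2ac6 and 1.39 (SE 0.10) for H2bc4.

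H2ac25, an H2A gene on chromosome 11, was the exception in direction. In monocyte-like cells it had 12.5, 9.82, 12.5 and 13.7 CPM when cycling and 28.9, 32.6, 27.0 and 26.5 CPM when not. The cycling values lay below the non-cycling ones in 4 of 4 libraries, with a log2 fold change of -1.33 (SE 0.11, edgeR adjusted p = 1.07e-08). In neutrophil-like cells it had 3.60 to 5.60 CPM when cycling and 4.07 to 4.33 CPM when not, which overlap. In B-lineage-like cells it had a log2 fold change of -0.23 (SE 0.18, edgeR adjusted p = 0.36). H2ac25 was also above 10 CPM in non-cycling plasmacytoid-DC-like cells, at 49.3, 50.4, 76.1 and 46.2 CPM, and in macrophage-like cells, at 28.5, 39.6, 32.9 and 36.1 CPM.

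The other leavers were H2bc24, H4c16, H3c4, H3c1 and H2bc27. H2bc24, an H2B gene, had 13.1, 15.4, 19.2 and 21.2 CPM in cycling and 6.72, 7.78, 15.2 and 14.4 CPM in non-cycling neutrophil-like cells. Its log2 fold change of 0.42 (SE 0.09, edgeR adjusted p = 0.000496) was under the size needed for a call. The cycling and non-cycling ranges of H2bc24 overlapped across libraries. H4c16 had log2 fold changes of 1.5, 0.27 and 0.46 in neutrophil-like, monocyte-like and B-lineage-like cells. H3c4 had 3.95, 0.53 and 0.57 and H3c1 had 4.06, 0.93 and 0.40 in the same order. H2bc27 was tested in monocyte-like cells (0.06) and B-lineage-like cells (0.18).

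By their medians, members with an extended transcript changed less with the cycle and stood higher both outside it and in cycling cells. In neutrophil-like cells the median log2 fold change was 2.68 over the 23 extended members tested, 5.10 over the 22 that end at the stem-loop and 5.79 over the 15 without an annotated end. In monocyte-like cells the medians were 1.57, 3.36 and 3.32, and in B-lineage-like cells they were 0.57, 2.52 and 2.62. In non-cycling cells 8 of 23 extended members had 10 CPM or more in neutrophil-like cells, against 0 of 22 and 0 of 15. The counts were 15 of 24, 3 of 22 and 1 of 15 in monocyte-like cells and 17 of 21, 3 of 19 and 1 of 10 in B-lineage-like cells. The ranges overlapped: among extended members H2ac8 changed by 5.47 in neutrophil-like cells, and among stem-loop members H3c1 changed by 0.40 in B-lineage-like cells. The median level in cycling neutrophil-like cells was 64.8 CPM over extended members, 20.6 over those that end at the stem-loop and 25.2 over those without an annotated end. In the same order it was 51.8, 19.4 and 29.7 CPM in monocyte-like cells and 37.8, 17.4 and 31.6 CPM in B-lineage-like cells. These values describe the tested members. The part of unique windows in them was not tested. Whether transcript ends were used differently in these cells was not tested, since the deposited counts do not record where a read ended. The end classes come from GENCODE vM21 on GRCm38, while the counts were made on GRCm39. The transcript ends used for counting are not given, and their part in these levels was not tested.

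Neighbouring genes with a shared start region allow members to be compared where the region between the starts is common. In 13 places members start under 1000 bases apart on opposite strands, and each of these holds an H2A with an H2B gene except H2bc9 with H3c7. H2ac24 and H2bc24 start 251 bases apart. H2ac24, which ends at the stem-loop, had 41.4, 61.9, 58.6 and 65.1 CPM in cycling and 1.46, 1.72, 3.09 and 2.65 CPM in non-cycling neutrophil-like cells, a log2 fold change of 4.41 (SE 0.09). Its extended neighbour H2bc24 changed by 0.42 (above). H2ac6 and H2bc4, also 251 bases apart, are both extended, and both kept 24 to 70.0 CPM outside the cycle in this class. H2ac20 and H2bc21, 239 bases apart, changed by 5.19 (SE 0.07) and 3.83 (SE 0.22). H2ac8 and H2bc8, 176 bases apart and both extended, changed by 5.47 (SE 0.06) and 4.14 (SE 0.11). The pairs thus held both alike and unlike neighbours. H2bc24 (13.7%) and H2ac24 (7.63%) both have few unique windows, so the reads of either may be shared with copies and their contrast is uncertain.

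The 250 bases before the start are shown for 1 member that nearly vanished outside the cycle (H2ac4), 1 that did not (H2ac6) and 1 H4 gene (H4c4), from RefSeq on build GRCm38.p6. Capitals mark the letters ATTTGCAT (the octamer bound by Oct factors), CCAAT and TATAAA on either strand.

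H2ac4, chr13:23750838-23751087, plus strand: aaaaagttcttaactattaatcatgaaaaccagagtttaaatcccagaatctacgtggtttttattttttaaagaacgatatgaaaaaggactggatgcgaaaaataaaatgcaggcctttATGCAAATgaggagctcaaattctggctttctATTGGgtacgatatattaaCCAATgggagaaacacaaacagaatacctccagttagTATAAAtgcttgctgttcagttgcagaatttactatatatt

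H2ac6, chr13:23683960-23684209, minus strand: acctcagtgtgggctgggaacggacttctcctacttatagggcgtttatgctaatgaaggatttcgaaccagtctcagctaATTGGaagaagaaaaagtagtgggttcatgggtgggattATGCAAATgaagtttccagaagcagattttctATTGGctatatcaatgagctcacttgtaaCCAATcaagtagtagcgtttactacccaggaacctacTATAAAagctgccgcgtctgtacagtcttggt

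H4c4, chr13:23581318-23581567, plus strand: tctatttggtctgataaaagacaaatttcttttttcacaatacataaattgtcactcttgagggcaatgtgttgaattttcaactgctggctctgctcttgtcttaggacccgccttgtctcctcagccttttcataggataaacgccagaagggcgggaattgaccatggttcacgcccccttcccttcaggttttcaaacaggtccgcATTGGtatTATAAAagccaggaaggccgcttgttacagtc

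H2ac4 and H2ac6 each held all 3 motifs. The part of the motifs in their levels outside the cycle was not tested. The shares that follow are over the full RefSeq windows of 300 bases, from 250 before to 50 after the start. Over the 58 promoters of 57 members, ATTTGCAT was in 22.4%, against 1.74% of all 32851 promoters of the same length. It was in 35.3% of H2A and 46.7% of H2B promoters and in none of the H1, H3 or H4 promoters. CCAAT was in 86.2% of member promoters against 37.4% of all, and in 27.3% of the H4 promoters. TATAAA was in 58.6% against 13.6%. A match is a match of letters within these windows and no measured site.

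Genes that make, cut and carry these histones were read from lists. No member of the family is in them. Of 16 genes for histone transcription and 3′ end processing, 9 were called higher and 1 lower in cycling neutrophil-like cells, with a median log2 fold change of 1.24. In monocyte-like cells 6 of 16 were higher (median 0.88) and in B-lineage-like cells 1 of 15 (median 0.35). Slbp, which binds the stem-loop, rose from a mean of 39.3 to 201 CPM in neutrophil-like cells, a log2 fold change of 2.14 (SE 0.04, edgeR adjusted p = 9.78e-21). Eri1, an exonuclease that trims the stem-loop end, rose by 3.37 (SE 0.06) and Npat, the activator of histone transcription, by 2.21 (SE 0.10). Lsm10, a protein of the U7 particle, fell by 1.58 on the log2 scale. It was the 1 of 16 called lower, in a class where 13.8% of all genes were.

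Of 19 chaperones that carry histones to DNA, 12 were called higher in cycling neutrophil-like cells (median 1.96). In monocyte-like cells 9 of 19 were higher and 1 lower (median 0.97), and in B-lineage-like cells 4 of 18 were higher (median 0.65). Asf1b, which hands H3 and H4 on, rose by 7.11 (SE 0.08) in neutrophil-like cells and by 5.95 (SE 0.13) in monocyte-like cells. Chaf1a, a subunit of the CAF-1 complex that works at the fork, rose by 4.94 (SE 0.12) and 4.98 (SE 0.14). Daxx, a chaperone of the variant H3.3, was the gene called lower in monocyte-like cells, by a log2 fold change of -1.11 (SE 0.13). Of all genes 8.42% were called lower there, so 1 of 19 was not above the background. In the general polyadenylation machinery 2 of 15 genes were called higher in neutrophil-like cells (median 0.22) and 0 of 15 in the other 2 classes. Set beside the 21.1%, 13.4% and 6.92% of all genes called higher in the 3 classes, this count was below the background in neutrophil-like cells, and the 1 of 15 processing genes in B-lineage-like cells was near it.

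The genes on a list of replication-independent histone variants split. Of 9 measured in neutrophil-like cells 4 were called higher (median 0.65), in monocyte-like cells 3 of 10 (median 0.93) and in B-lineage-like cells 5 of 8 (median 1.26). H2ax, the H2A variant marked at DNA breaks, rose by 4.57 (SE 0.06), 3.32 (SE 0.06) and 2.87 (SE 0.18) in neutrophil-like, monocyte-like and B-lineage-like cells. H2az2 rose by 3.06 (SE 0.04), 1.71 (SE 0.05) and 1.71 (SE 0.09). H3f3a and H3f3b, which code for H3.3, had log2 fold changes between -0.35 and 0.30 in these classes, and none was called.

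The level of the members was also followed along the cycle. The 9700 cells that carried both the S and the G2/M call were ordered by the ratio of the 2 lists and divided into 5 bins from most S to most G2/M. Over all cells the summed level was 2122 CPM in the first bin, 4961 in the second, 6212 in the third, 6909 in the fourth and 6570 in the last. In neutrophil-like cells it was 2556, 5732, 7138, 7686 and 6636 CPM, and in monocyte-like cells 2653, 5383, 6522, 7817 and 6795 CPM. In GMP-like cells it was 1341, 3271, 3089, 2196 and 2545 CPM, so the highest bin was the second, and the last held 27 cells. By library the second bin was the highest in Butyrate (3800 CPM) and B12+Butyrate (3988 CPM), the third in B12 (3530 CPM), and in Control the last, with 10 cells (2984 CPM, against 2909 CPM in the second). In monocyte-like cells the fourth bin was the highest in each library except Butyrate, where it had 7551 CPM and the last 7755 CPM. The difference in order between GMP-like and other cells was not tested. The bins are cells along an order of 2 gene lists, not times.

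Members differed in their place along this order. In neutrophil-like cells the highest bin was the second for 9 members, the third for 8, the fourth for 37 and the fifth for 4, among members with at least 500 UMIs there. H1f1, a linker histone, peaked early, at 40.3 CPM in the second bin against 12.1 CPM in the last. H1f5 peaked in the third bin, at 769 CPM against 444 CPM in the last. H2ac8 peaked at 611 CPM in the fourth bin and fell to 382 CPM in the last. H1f4 reached 1029 CPM in the fourth bin and H2ac6 its highest value, 288 CPM, in the last. In GMP-like cells the highest bin was the second for 18 members, and H1f1 again ran from 44.2 CPM there to 10.7 CPM in the last bin.

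**Figure D3:**
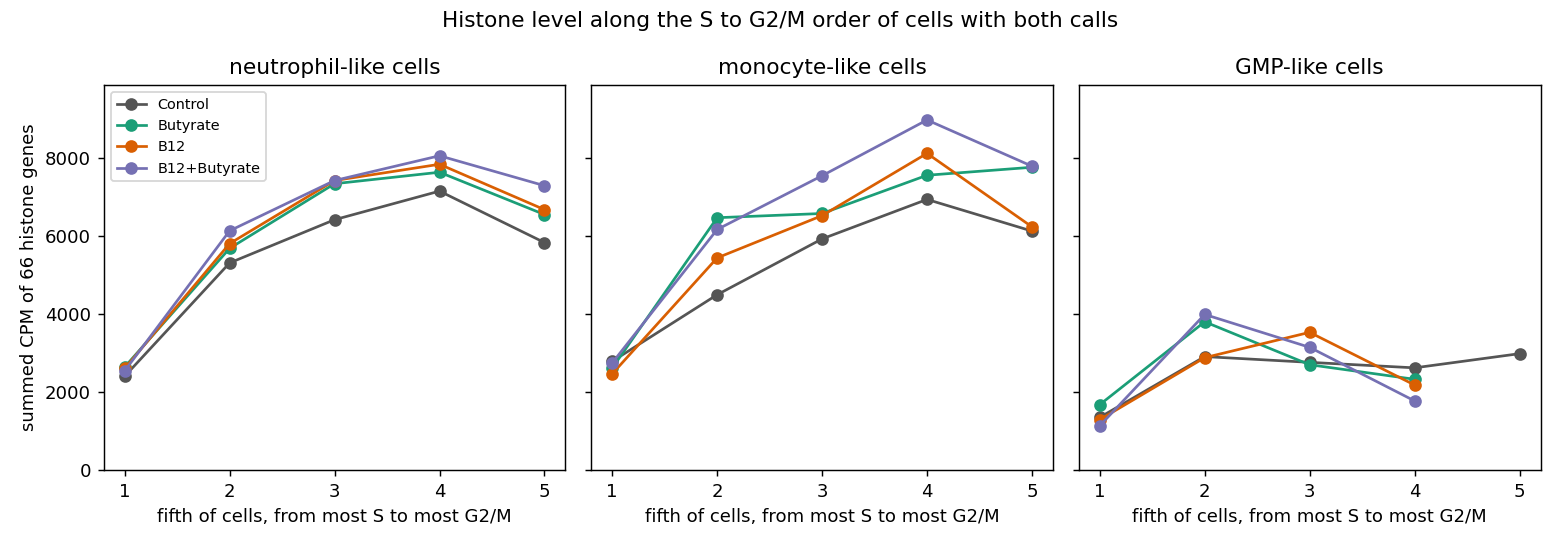
Summed level of the 66 histone genes (y, CPM, linear from 0) in 5 bins of cells with both calls, ordered from most S to most G2/M (x), for 3 classes, each line 1 library (bins under 10 cells not drawn). Over all libraries the level is highest in the fourth bin in neutrophil-like and monocyte-like cells (7686 and 7817 CPM) and in the second in GMP-like cells (3271 CPM).

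Cells with 1 call were closer to non-cycling cells than to cells with both. Cells with neither call had 577, 635, 803 and 672 CPM. Cells with the S call only had 700, 834, 946 and 863 CPM, and cells with the G2/M call only had 967, 1225, 1306 and 1075 CPM. Cells with both calls had 4760, 5548, 5377 and 5747 CPM, and none of these values overlapped with the others.

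Cycling and non-cycling cells of the myeloid classes lay mostly in different clusters. Of the cycling neutrophil-like cells 11.4% to 15.9% were in clusters with at least 10 cells of each state in that library. Within those clusters the log2 ratio of the summed level was 0.26, 0.37, 1.78 and 1.48, with a mean of 0.973, against a mean of 3.357 in the whole class. The libraries thus fell apart there, with the 2 that received B12 higher. The clusters were picked in each library by its own cell counts, so these ratios may come from different sets of clusters. The part of this choice in the difference between libraries was not tested. In monocyte-like cells, with 31.7% to 41.5% of cycling cells in such clusters, the ratio was 0.28, 0.35, 0.12 and 0.06, with a mean of 0.203 against 2.223. In B-lineage-like cells, with 97.7% to 100.0% in such clusters, it was 1.23, 2.00, 1.12 and 1.54. In the myeloid classes the cycle and the cluster therefore cannot be told apart.

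Between the libraries, few members of cycling neutrophil-like and GMP-like cells passed the size used for a count. A member was counted as higher in one library when it had 10 CPM or more in either and a log2 ratio of 0.5 or more with a pseudocount of 10 CPM. No test was run between libraries, since each group is 1 library. In cycling neutrophil-like cells 1 of 51 members was higher in B12 than in Control (H4c14), 1 of 49 in Butyrate (H4c8) and 1 of 49 in B12+Butyrate (H2ac24). The share over all genes was 0.073%, 0.102% and 0.073% in these comparisons, which share the Control library. The log2 ratio to Control was above 0 for 48 of 51 members in B12, 42 of 49 in Butyrate and 43 of 49 in B12+Butyrate. The medians were 0.20, 0.09 and 0.20 against -0.01, -0.01 and -0.02 over all genes. The share of all genes above 0 is not given here. Members of 1 pair of libraries are not replicates, so each count describes a single difference between libraries. In cycling monocyte-like cells the counts were 2 of 44 in B12 (H2ac24 and H4c4; 0.179% of all genes), 0 of 47 in Butyrate (0.438%) and 2 of 46 in B12+Butyrate (the same pair; 0.689%). In cycling GMP-like cells 0 of 39 members were higher in B12 (0.136%) and 1 of 40 in Butyrate (H4c16; 0.619%). In B12+Butyrate 1 of 38 was lower than in Control there (0.31% of all genes): H1f4, with 146 against 211 CPM, a log2 ratio of -0.50.

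In non-cycling cells the 2 libraries with B12 stood higher than the 2 without it for the summed members in 3 classes. Among single members H2ac6, H2bc4 and H4c4 kept this order in all 3, and others kept it in some of them. In neutrophil-like cells H2ac6 had 24 (21.5 to 26.6), 27.4 (24.4 to 30.7), 53.3 (49.9 to 56.9) and 41.4 (38.7 to 44.3) CPM, with exact Poisson 95% intervals in brackets. In monocyte-like cells H2ac6 had 84.6 (79.6 to 89.9), 100.0 (93.2 to 108), 159 (151 to 168) and 161 (152 to 171) CPM. In B-lineage-like cells it had 46.6 (38.4 to 56.1), 46.8 (39.6 to 55.0), 152 (133 to 173) and 89.9 (80.0 to 101) CPM. The 2 libraries with B12 thus lay above the 2 without it in each of these classes, by more than counting error.

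H2bc4 also stood higher in the 2 libraries with B12 than in the 2 without it in these classes. It had 47.5, 43.8, 70.0 and 55.6 CPM in neutrophil-like cells. In monocyte-like cells it had 122, 97.7, 181 and 170 CPM and in B-lineage-like cells 63.1, 70.1, 174 and 125 CPM. H4c4 had 18.9, 20.8, 27.4 and 24.6 CPM, then 45.3, 55.0, 67.1 and 72.3 CPM, then 35.5, 37.6, 94.7 and 61.7 CPM in the same classes. H2bc24 had 6.72, 7.78, 15.2 and 14.4 CPM in neutrophil-like cells. H1f2 did not keep this order: in monocyte-like cells it had 57.7, 67.8, 55.9 and 83.5 CPM, and the B12 value was the lowest. H1f4 had 121, 109, 136 and 95.7 CPM in neutrophil-like cells, with B12+Butyrate the lowest.

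In other classes, with 8 to 221 non-cycling cells per library, the order of H2ac6 held in part. Non-cycling macrophage-like cells had 37.2, 68.8, 91.4 and 101 CPM and the mixed basophil, mast and HSC/MPP-like cells had 177, 239, 290 and 492 CPM, both with the B12 libraries highest. Plasma-like cells, of which most were called doublets, had 39.4, 24.8, 70.2 and 65.8 CPM. Conventional-DC-like cells had 34.4, 89.3, 103 and 67.7 CPM, T-like cells 8.23, 22.1, 59.0 and 10.8 CPM and NK-like cells 17.7, 8.09, 52.9 and 15.2 CPM. In those 3 classes the B12 library stood highest and the B12+Butyrate library lay within the range of the 2 libraries without B12. Plasmacytoid-DC-like cells had 29.3, 73.1, 38.1 and 95.9 CPM for H2ac6, with Butyrate above B12.

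**Figure D4:**
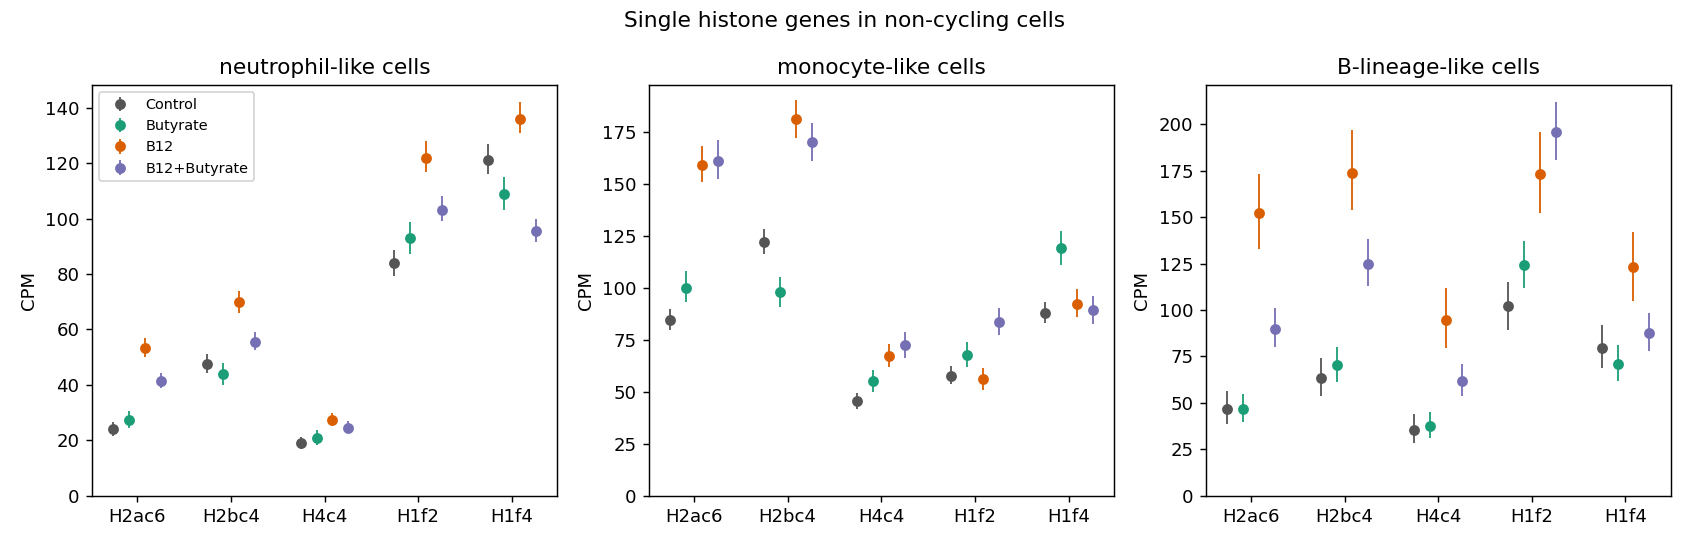
Level (y, CPM, linear from 0, one scale per panel) of 5 single members (x) in non-cycling cells of 3 classes, each point 1 library with its exact Poisson 95% interval for counting error. H2ac6 lies at 152 CPM in B12 and 46.6 CPM in Control in B-lineage-like cells, while H1f2 lies lowest in B12 in monocyte-like cells.

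Counted over members, the difference was largest in B-lineage-like cells. Among non-cycling neutrophil-like cells 2 of 9 members were higher in B12 than in Control (0.221% of all genes) and 0 of 8 in B12+Butyrate than in Butyrate (0.0169%). Among monocyte-like cells the counts were 6 of 21 (0.528%) and 3 of 19 (0.315%), and among B-lineage-like cells 15 of 21 (4.02%) and 8 of 21 (0.834%). The median log2 ratio of B12 to Control was 0.40, 0.36 and 0.72 over these members in the 3 classes and -0.02, -0.01 and 0.02 over all genes. For B12+Butyrate over Butyrate the medians were 0.16, 0.12 and 0.30. With a pseudocount of 1 CPM, 6 of the neutrophil-like and 11 of the monocyte-like members were higher in B12 than in Control. The share over all genes at that pseudocount is not given here. The B12+Butyrate library had 5 of 21 members lower than the B12 library in B-lineage-like cells (4.78% of all genes). Butyrate alone, set against Control, had 0 of 7, 1 of 19 and 1 of 20 members higher in the same classes (0.437%, 1.08% and 1.16% of all genes).

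Several measures were read beside these differences. The summed S-phase list in non-cycling cells was 224, 212, 205 and 191 CPM in neutrophil-like, 498, 487, 509 and 461 CPM in monocyte-like and 595, 594, 599 and 592 CPM in B-lineage-like cells, so that it was lowest in B12+Butyrate in each class. Hspa1a, a heat shock gene, was at 588, 858, 1081 and 804 CPM in monocyte-like and 349, 617, 606 and 482 CPM in B-lineage-like cells, lowest in Control, and its part in the result was not tested. The median depth of non-cycling B-lineage-like cells was 4627.5, 4712, 3892 and 5025.5 UMIs, lowest in B12. S100a8, a gene of neutrophils, was at 969, 430, 730 and 221 CPM in those cells and did not follow the order of H2ac6. With the libraries weighted to the same clusters, or with called doublets removed, the B12 to Control ratio of the summed members stayed within its counting interval in each of the 3 classes. Thinned to 2000 UMIs per cell it was 0.272 in neutrophil-like, 0.633 in monocyte-like and 1.162 in B-lineage-like cells, against 0.452, 0.510 and 1.047 for all UMIs. In the lists of related genes the counts were 0 of 8, 0 of 14 and 0 of 13 processing genes, 0 of 13, 0 of 15 and 0 of 15 chaperones, 0 of 7, 0 of 8 and 0 of 7 variants and 0 of 11, 0 of 14 and 0 of 15 polyadenylation genes higher in B12 than in Control in the 3 classes, where 0.221%, 0.528% and 4.02% of all genes were. In lists of this size a count of 0 is near these shares. In monocyte-like cells 1 variant was lower, H1f0, with 32.0 CPM in Control and 17.8 CPM in B12. Each group is 1 library, so treatment and library cannot be told apart.

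In cycling B-lineage-like cells the libraries differed most, and the difference depended on called doublets. Before their removal 28 of 42 members were higher in Butyrate than in Control (3.95% of all genes), 15 of 39 in B12 (10.3%) and 37 of 44 in B12+Butyrate (5.81%). In B12 1 of 39 was lower (8.94%). B12+Butyrate had 14 of 44 higher than B12 (6.88%) and 5 of 45 higher than Butyrate (4.88%). With called doublets removed the counts against Control were 4 of 32, 22 of 39 and 26 of 39. Those of B12+Butyrate were 8 of 42 against B12 and 30 of 40 against Butyrate. No share over all genes is given for cells without called doublets, so these counts have no background beside them. The summed level was then 1297 CPM in Control, 1160 in Butyrate, 2361 in B12 and 2298 in B12+Butyrate, against 1710, 3205, 2649 and 3276 CPM before, and the Butyrate to Control ratio turned from a log2 value of 0.90 to -0.16. S100a8 was at 1003, 480, 3857 and 1448 CPM in cycling B-lineage-like cells before removal, and its part in the counts was not tested. These cells numbered 205, 208, 135 and 222. Most of their member UMIs came from few cells: 36, 32, 15 and 25 of them carried both the S and the G2/M call. With called doublets kept, those held 1973 of 2640, 4693 of 5356, 1080 of 1907 and 4157 of 5323 member UMIs.

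Some members stood 0.5 or more on the log2 scale away from the median of the members between libraries. Apart from H1f4 in neutrophil-like and GMP-like cells, they were H1f2, H2ac6 and H2bc4 in non-cycling monocyte-like cells and various genes in B-lineage-like cells. In non-cycling monocyte-like cells H2bc4 had a log2 ratio of -0.30 in Butyrate against Control and of 0.74 in B12+Butyrate against Butyrate. H1f2 had 0.51 in B12+Butyrate against B12. In non-cycling B-lineage-like cells H1f3 had 17.3, 26.7, 68.2 and 44.5 CPM, a log2 ratio of 1.52 in B12 against Control, the same as H2ac6. H4c9, an H4 gene, had 23.5 CPM in Control and 65.0 CPM in B12+Butyrate. H2ac25 had 27.2, 25.8, 19.8 and 26.2 CPM and H2bc27 12, 17.2, 12.3 and 14.7 CPM, and neither reached a log2 ratio of 0.5 in B12 against Control. In cycling B-lineage-like cells, where doublets weigh on every value, H2bc6 stood at 41.5, 65.2, 126 and 87.4 CPM and H2bc3 at 17.5 CPM in Control and 4.17 CPM in B12. The other genes that stood apart there in at least 1 comparison were H1f1, H1f2, H1f3, H2ac4, H2ac6, H2ac13, H2ac18, H2ac20, H2ac25, H2bc8, H2bc9, H2bc11, H2bc12, H2bc18, H2bc24, H2bc27, H3c2, H4c4, H4c9 and H4c14. Their log2 ratios ran from -0.57 for H3c2 in B12+Butyrate against Butyrate to 1.48 for H4c4 in Butyrate against Control.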

How the data were processed

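Per the file headers, Cell Ranger 7.1.0 made the matrices. The build was GRCm39 per the submitters' processing notes, and the libraries were 10x 3′ libraries per the labels' protocols. The matrices deposited by the authors hold raw UMI counts per gene and barcode. Intron counting: not given in the sources used here.

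The members, gene lists, markers and tests were chosen with earlier results of these data known. Cells were clustered (30 principal components, 20 neighbours, Leiden at resolution 1) without members and cycle genes, and a cluster was named at a marker score of at least 1.0, lowered after the clusters were seen. Of 30 clusters 6 stayed unnamed. A cell was called cycling above 10.9 S-list or 17.8 G2/M-list UMIs per 10000, with at least 3 UMIs of that list. Doublets were called by simulation (0.8% per 1000 barcodes) and kept, with removal as an alternative. UMIs were summed per library, class and state, with 719771 to 42705624 UMIs a sum in the fits, and tested with edgeR 4.0.16 (R 4.3.3), with DESeq2 1.42.0 as an alternative. The block is the library, since both states come from it. Spread between libraries includes the treatments. In simulated counts of the same size, edgeR found 86% to 97% of changes of log2 1. The simulation gave all genes the same fixed spread and set changes only in genes above a minimum mean count. Its share therefore does not carry over to members with fewer counts or a wider spread.

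The genes named were the 12 with the highest CPM, those that left the group by the rules given, up to 4 per list, and some neighbours chosen after their values were seen. Stem-loops came from GENCODE vM21 transcripts of all 66 members by symbol, promoters from RefSeq. Other work used pandas 2.3.3, numpy 2.4.6 and scipy 1.17.1 in Python 3.11.15. Clusters came from python-igraph 0.11.9 with leidenalg 0.10.2, and scikit-learn 1.9.0 gave the components. Figures were drawn with matplotlib 3.10.9.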

Additional observations from a re-analysis of the deposited data

How the results depend on the processing

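In neutrophil-like and monocyte-like cells the count of members higher in cycling cells stayed within 1.5 times under DESeq2, no filter, no library term, both shifted limits for cycling, removal of doublets, thinning, other cluster resolutions and the omission of each library. In B-lineage-like cells it was 19 without called doublets and 7 after thinning, against 34; fewer members were tested in both. Within the same clusters the mean log2 ratio of the summed level was 0.973 in neutrophil-like and 0.203 in monocyte-like cells. The cycle comparison pairs the 2 states of a library through the library term. Between groups no pairing exists, since each is 1 library.

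The log2 ratio of cells with both calls to cells with neither was 3.021, 3.106, 2.728 and 3.078 in Control, Butyrate, B12 and B12+Butyrate. With limits 1.5 times higher it was 3.196, 3.317, 2.900 and 3.302, with limits 1.5 times lower 2.952, 3.001, 2.667 and 2.987, and after thinning 2.949, 2.952, 2.654 and 2.854. Without called doublets it was 3.077 in Control.

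The log2 ratio of the summed level in non-cycling cells moved after thinning to 0.272 (B12 to Control) and 0.137 (B12+Butyrate to Butyrate) in neutrophil-like cells, 0.633 and 0.386 in monocyte-like cells and 1.162 (B12 to Control) in B-lineage-like cells. The members higher after thinning were 2 for B12+Butyrate to Butyrate in neutrophil-like cells, and 10 and 7 for the 2 comparisons in monocyte-like cells. A pseudocount of 1 CPM gave 6 and 2 in neutrophil-like cells and 11 for B12 to Control in monocyte-like cells.

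In cycling B-lineage-like cells the members higher were 4 (Butyrate to Control), 8 (B12+Butyrate to B12) and 30 (B12+Butyrate to Butyrate) without called doublets, against 28, 14 and 5. After thinning they were 10 (Butyrate to Control), 5, 12 and 17 (B12+Butyrate to Control). A pseudocount of 1 CPM gave 23 for B12 to Control. Chosen after seeing the data were cycling cells with both calls only, in the cycle comparison, and limits 1.5 times lower, in the comparison of libraries; the values computed under them kept their direction and side of the threshold or stayed within the counting interval. The cause of these changes was not tested. For the alternative settings no share over all genes is given beside the counts of members.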
